A study of Mus musculus with 8 samples.

Results

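The 9 genes described here, Ifi27l2a, Ifi44, Rtp4, Samd9l, Rsad2, Cmpk2, Bst2, Xaf1 and Parp14, are interferon-induced antiviral effectors that lie outside the Ifi200, Oas, Ifit and Isg15 families. They are 9 of the 16889 genes of a single-cell RNA-seq (scRNA-seq) count matrix, all 9 passed the filter on low counts, and they were chosen with their difference between the conditions already known. Their cKO against control values are therefore given as a description, with no test. The mice were 8 female CD98hcΔCX3CR1 littermates of 6 to 12 weeks, all with a floxed CD98hc (Slc3a2) gene and the Cx3cr1CreER-YFP allele. Its Cre is expressed by CX3CR1+ monocytes and macrophages and is switched on by tamoxifen. The 4 control mice received corn oil and the 4 cKO mice tamoxifen on 5 days, with readout at day 7, so the drug and the deletion cannot be told apart. CD11b+ cells positive for CCR2, CD64 or both were sorted from the colonic lamina propria, the connective tissue under the gut epithelium, and each mouse gave 1 library.

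Type I interferon binds its receptor IFNAR and acts through JAK kinases and a complex of transcription factors that binds interferon-stimulated response elements in the promoters of responding genes. The products block viruses at different steps: entry and budding, nucleotide supply, translation and cell survival. Monocytes and macrophages of the gut, which meet microbes and their nucleic acids continually, express part of this programme in the absence of infection. Among the 9 genes, Bst2 encodes tetherin, which holds budding virions at the cell surface. Rsad2 encodes viperin, a radical SAM enzyme that makes an altered nucleotide from CTP, and Cmpk2 encodes a mitochondrial nucleotide kinase. Ifi27l2a belongs to the ISG12 family of small hydrophobic proteins, and Xaf1 encodes an antagonist of the caspase inhibitor XIAP. Samd9l restricts poxviruses, Parp14 is a mono-ADP-ribosyltransferase, Rtp4 is a chaperone of G protein-coupled receptors, and Ifi44 is an interferon-induced cytosolic protein.

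In the GRCm38 annotation (GENCODE vM21) all 9 are protein-coding. Rsad2 (chromosome 12, 26442746 to 26456452, minus strand) and Cmpk2 (chromosome 12, 26469204 to 26479837, plus strand) are divergent neighbours with 12751 bases between them. Ifi27l2a lies farther along the same chromosome (103442167 to 103443680, minus strand). Rtp4 (23520291 to 23614222, plus strand) and Parp14 (35832874 to 35871544, minus strand) are both on chromosome 16. Ifi44 is on chromosome 3 (151730922 to 151749960, minus strand), Samd9l on chromosome 6 (3372257 to 3399572, minus strand), Bst2 on chromosome 8 (71534255 to 71537456, minus strand) and Xaf1 on chromosome 11 (72301629 to 72313733, plus strand).

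Promoters are shown because these genes were higher together in cKO cells, and because the response element has a known core. RefSeq promoter sequences (GRCm38.p6, 250 bases before to 50 after the start site) were at hand for 6 of the 9 genes, namely Ifi44, Samd9l, Rsad2, Cmpk2, Bst2 and Xaf1. They were searched on both strands for a pair of GAAA core repeats 2 bases apart, and for GAAACT, the half-site that such elements often end with. The half-site was added, and the promoters to print were chosen, after the matches to the core pair had been seen. The core pair was present in 2 of the 6 promoters, Rsad2 and Bst2, and in 3.44% of all 32851 promoters. GAAACT was present in 5 of the 6 and in 15.8% of all promoters, and the 2 motifs overlap in Bst2. The 5 promoters with a GAAACT match are given from 150 bases before to 50 bases after the start site, 5′ to 3′ on the gene's own strand, with matches to the core pair or GAAACT on either strand in capitals.
Bst2, chr8:71537423-71537622, minus strand: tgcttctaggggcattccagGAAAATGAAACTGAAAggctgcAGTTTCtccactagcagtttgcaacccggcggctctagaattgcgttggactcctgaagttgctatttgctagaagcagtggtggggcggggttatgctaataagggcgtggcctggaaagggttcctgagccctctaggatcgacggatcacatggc
Rsad2, chr12:26456403-26456602, minus strand: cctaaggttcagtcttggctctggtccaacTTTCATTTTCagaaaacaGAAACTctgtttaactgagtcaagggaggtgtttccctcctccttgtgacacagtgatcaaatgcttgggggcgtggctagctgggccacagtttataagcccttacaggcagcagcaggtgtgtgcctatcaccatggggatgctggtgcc
Xaf1, chr11:72301479-72301678, plus strand: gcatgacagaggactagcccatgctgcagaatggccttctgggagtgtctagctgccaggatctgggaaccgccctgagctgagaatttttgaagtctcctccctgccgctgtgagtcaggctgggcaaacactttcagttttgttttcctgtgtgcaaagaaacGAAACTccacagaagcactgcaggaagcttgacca
Ifi44, chr3:151749861-151750060, minus strand: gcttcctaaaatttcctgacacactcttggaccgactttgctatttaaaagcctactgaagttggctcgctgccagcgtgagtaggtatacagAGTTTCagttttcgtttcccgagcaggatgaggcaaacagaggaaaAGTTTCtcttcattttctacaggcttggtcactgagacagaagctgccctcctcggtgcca
Samd9l, chr6:3399522-3399721, minus strand: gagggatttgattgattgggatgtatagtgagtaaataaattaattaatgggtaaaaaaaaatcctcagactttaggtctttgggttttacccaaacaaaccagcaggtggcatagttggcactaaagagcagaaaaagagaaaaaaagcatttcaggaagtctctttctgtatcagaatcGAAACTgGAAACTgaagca

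In Bst2 the longest run of matches covered 16 bases, from 130 to 115 bases before the start site. In Rsad2 the 10-base match began 120 bases before it. The Xaf1 match and both Samd9l matches lay after the start site, the Samd9l pair separated by a single base. The Cmpk2 window held neither motif, which says only that these letters are absent from it.

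Of 5947 barcodes, 3213 cells were kept, 1863 from control and 1350 from cKO mice, with 83 to 724 cells, 497531 to 3762314 unique molecular identifiers (UMIs) and a median of 4149 to 5538 UMIs per cell in each mouse. Control replicate 3 and cKO replicate 5 had under 100 cells each, and Scrublet called 24 of the 83 cells of cKO replicate 5 doublets against 2 to 16 cells in the other mice. Among the cells kept, 8 barcode strings occurred in more than 1 library. Slc3a2, the targeted gene, was at 358, 264, 233 and 493 UMIs per 1000000 (CPM) in control replicates 1 to 4 and at 291, 357, 323 and 309 CPM in cKO replicates 5 to 8, so the groups overlapped. The recombination removes exon 3, and these 3′ counts do not check the labels. Ward clustering, from which the 9 genes and other interferon-related genes were left out, gave 9 clusters. Cluster 1 was dendritic-like (Cd209a, Xcr1, Flt3), cluster 2 macrophage-like (C1qa, C1qb, C1qc, Apoe), cluster 5 monocyte-like (Chil3, Ly6c2, F13a1), cluster 8 lymphoid-like (Cd3g, Cd79a, Jchain) and cluster 9 stromal-like (Dcn, Col3a1). Clusters 3 (led by Ccl24, Saa3 and Arg1), 4 (Hes1, Ccr2, Ccl2) and 7 (Dmkn, Slpi, F10) were left unnamed, and so was cluster 6 (Ccl8, Cela1, Pf4), whose cells had a median of 0.241 of the UMIs of their own mouse's median cell. Dendritic-like cells made up 20.3% to 27.7% of the cells of a control mouse and 4.75% to 9.68% of a cKO mouse, and monocyte-like cells 5.88% to 13.5% and 14.7% to 19.8%.

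With all cells of a mouse summed, every one of the 9 genes had a higher mean in cKO than in control mice, and for 8 of them, all but Cmpk2, each cKO mouse lay above each control mouse. In this comparison 4% of the 11387 genes tested lay apart in that direction and 8.34% in the opposite one (5.85% and 6.11% after TMM scaling, with the same number of members, 8, apart upwards). Because the members were chosen on this contrast, nothing is read from that count. The median log2 fold change of the 9 genes, from edgeR, was 1.95 with a range of 0.89 to 4.34, beside a median of -0.03 over all genes tested. The 3′ UMIs count a molecule once whatever the length of its transcript. In these counts Ifi27l2a alone made up 63.0% to 72.6% of the summed UMIs of the 9 genes in control mice and 79.3% to 81.0% in cKO mice. That sum was between 1095 and 1547 CPM in the control and between 4457 and 5678 CPM in the cKO mice.

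**Figure D1:**
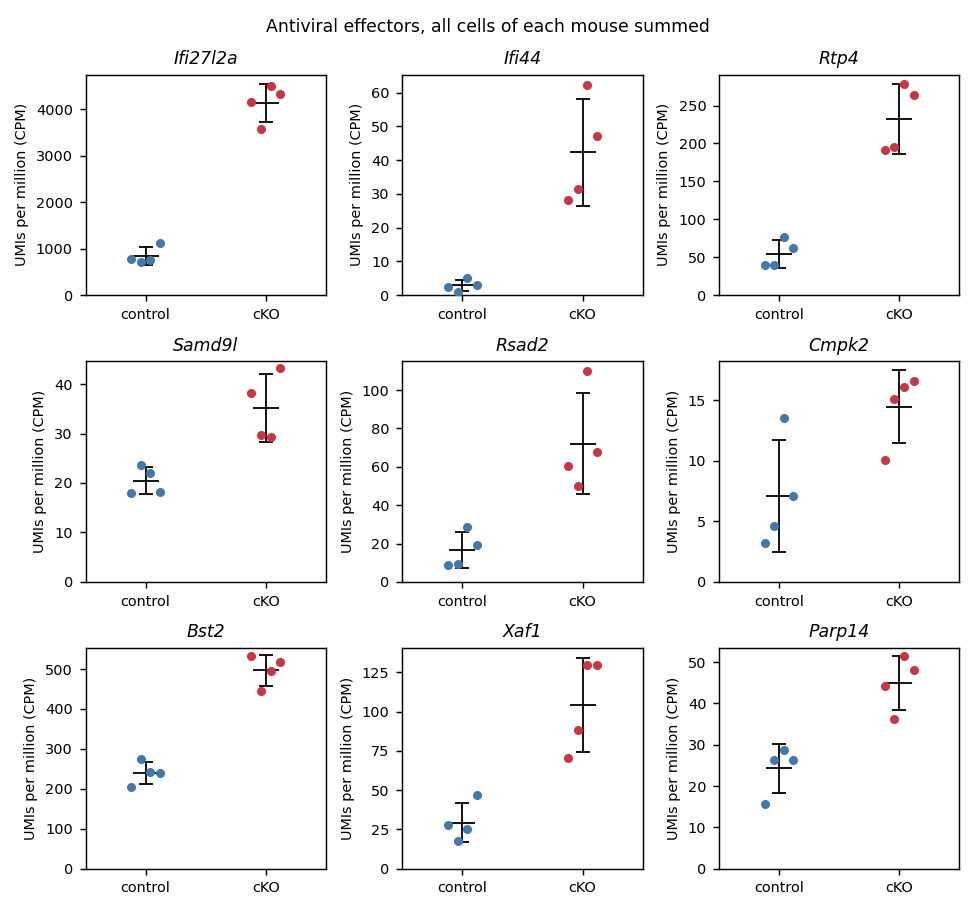
Level of each of the 9 genes in UMIs per 1000000 (CPM, y axis from 0), with 1 point per mouse, all cells summed, and a bar at the mean with the SD over 4 control or 4 cKO mice. The groups overlap for Cmpk2 and lie apart for the other 8 genes, with Ifi27l2a at 704 to 1124 CPM in control and 3567 to 4507 CPM in cKO mice.

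Ifi27l2a, the ISG12 family gene, was at 774, 704, 750 and 1124 CPM in control replicates 1 to 4. In cKO replicates 5 to 8 it was at 4159, 3567, 4507 and 4339 CPM. The means were 838 ± 193 and 4143 ± 410 CPM (SD, n = 4 each), a log2 fold change of 2.40 (SE 0.17), and the lowest cKO mouse was 3.17 times the highest control mouse. The median cell held 2 to 3 UMIs of the gene in control mice and 12 to 19 in cKO mice. Ifi27l2b, a close paralog, was at 5.85 to 23.8 CPM in control and 47.2 to 301 CPM in cKO mice, and how reads shared by the paralogs were split cannot be told from the counts.

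Xaf1 was next to Ifi27l2a among the genes tied to mitochondria and cell death. Its values were 27.6, 17.4, 25.5 and 46.8 CPM in control mice and 70.3, 88.3, 129.9 and 129 CPM in cKO mice. The groups did not overlap, and the log2 fold change was 1.95 (SE 0.30).

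The genes of nucleotide supply differed from each other. Rsad2 was at 9.04, 9.48, 28.9 and 19.2 CPM in control and at 60.3, 50.2, 109.8 and 67.8 CPM in cKO mice, with a log2 fold change of 2.45 (SE 0.37). Its neighbour Cmpk2 was at 3.19, 4.59, 13.6 and 7.07 CPM in control and at 10.0, 15.1, 16.1 and 16.6 CPM in cKO mice. Cmpk2 was the least abundant of the 9 genes in cKO mice, and the overlap came from control replicate 3 lying above cKO replicate 5, the mice with the fewest cells, where the gene had 8 and 5 UMIs. Its log2 fold change was 1.52 (SE 0.36).

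Bst2, encoding tetherin, had the smallest SD relative to the mean of the 9 genes in both groups. It was at 205, 274, 241 and 241 CPM in control mice and at 533, 444, 494 and 517 CPM in cKO mice. The means were 240.1 ± 28.1 and 497 ± 38.5 CPM (SD, n = 4 each), a log2 fold change of 1.14 (SE 0.14). Bst2 is also a surface marker of plasmacytoid dendritic cells. The defining markers of those cells were close to 0: Siglech was at 1.33 to 3.06 CPM in control and 0 to 0.804 CPM in cKO mice, and Ccr9 at 1.70 to 4.71 and 0 to 2.42 CPM. The 8 markers of that list summed to 49.2 to 91.7 CPM in control and 76.4 to 136 CPM in cKO mice, with 1 marker apart upwards and 1 apart downwards.

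Rtp4 was at 39.9, 39.1, 76.4 and 62.3 CPM in control mice and at 191, 195, 279 and 264 CPM in cKO mice. The lowest cKO mouse was 2.5 times the highest control mouse, and the log2 fold change was 2.25 (SE 0.24). Ifi44 had the largest fold change and the fewest control UMIs, 24 in all against 329 in cKO mice. It was at 2.39, 0.917, 5.09 and 3.03 CPM in control and at 28.1, 31.4, 62.3 and 47.2 CPM in cKO mice, a log2 fold change of 4.34 (SE 0.39). The smallest changes were those of Samd9l and Parp14. Samd9l was at 18.1, 23.5, 22.1 and 18.2 CPM in control and at 38.2, 29.6, 29.4 and 43.3 CPM in cKO mice, with a log2 fold change of 0.89 (SE 0.19). Parp14 was at 15.7, 26.3, 28.9 and 26.3 CPM in control and at 44.2, 36.3, 51.5 and 48.1 CPM in cKO mice, with a log2 fold change of 1.05 (SE 0.22). Both groups lay apart by a narrow margin, the lowest cKO mouse being 1.25 and 1.26 times the highest control mouse. Across the 9 genes, cKO replicate 7 was the highest cKO mouse for 6 and control replicate 3 the highest control mouse for 5.

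The sum over all cells mixes classes whose shares differed between the conditions. In that sum, fewer cells of a type and less RNA per cell cannot be told apart. Giving clusters 1 to 6 equal weight in each mouse, the log2 ratio of the means was 1.80 for Ifi27l2a, 1.66 for Rtp4 and 1.28 for Samd9l, and it was above 0 for all 9 genes. Without the dendritic-like, lymphoid-like and stromal-like clusters the log2 fold change of Samd9l was 1.42 and that of Parp14 0.70, and the Parp14 groups then overlapped, with control replicate 3 at 45.5 CPM and cKO replicate 6 at 41.9 CPM. The 9 monocyte markers summed to 582 to 1242 CPM in control and 3185 to 4698 CPM in cKO mice, the 7 neutrophil markers to 24.2 to 50.8 and 57.4 to 90.5 CPM, and the 9 dendritic markers to 737 to 885 and 177 to 330 CPM. Their part in the values of all cells summed was not tested, and the values within clusters follow.

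Of the monocyte-like, macrophage-like and dendritic-like classes in control mice, Ifi27l2a was highest in monocyte-like and lowest in dendritic-like cells. It was at 1703, 2528 and 2717 CPM in the monocyte-like cells of the 3 control mice with at least 20 such cells. In macrophage-like cells it was at 558, 638 and 560.0 CPM, and in dendritic-like cells at 318.5, 217, 277 and 432 CPM. In cKO mice the order of the 3 classes was the same. Monocyte-like cells were at 5547, 6759 and 6230 CPM, macrophage-like cells at 2652, 2964 and 4210 CPM, and dendritic-like cells at 1211, 1128 and 1324 CPM. In each of the 3 classes all cKO sums lay above all control sums, and the lowest cKO value in macrophage-like cells was below the highest control value in monocyte-like cells.

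**Figure D2:**
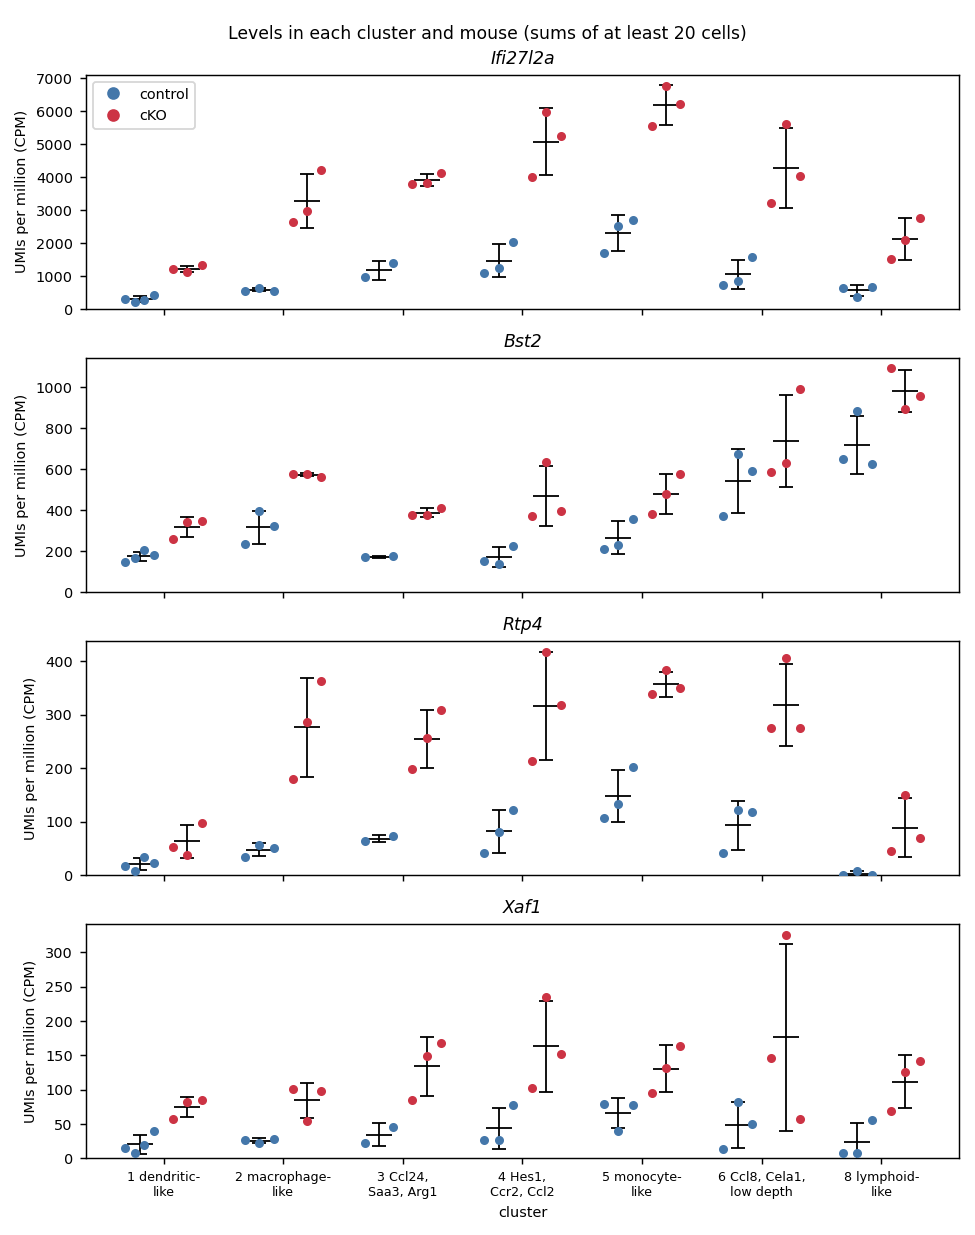
Level of Ifi27l2a, Bst2, Rtp4 and Xaf1 in UMIs per 1000000 (CPM, y axis from 0) in 7 clusters, with 1 point per mouse that had at least 20 cells in the cluster, and the mean with the SD where there are several. Ifi27l2a is higher in every cKO sum than in every control sum of the same cluster, and of the clusters drawn its highest value in each condition is in monocyte-like cells.

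The levels of the classes were compared within 6 mice, 3 control and 3 cKO, that had at least 20 cells of each class, by an exact two-sided sign-flip test of log2(CPM + 1) over 27 comparisons. With 6 mice the smallest p the exact test can give is 0.03125, which 8 comparisons reached, and after Benjamini-Hochberg adjustment over the 27 each of these had p = 0.105, so no difference passed 0.05. Ifi27l2a was lower in dendritic-like than in monocyte-like cells in 6 of 6 mice, by a mean of -2.6 ± 0.49 on the log2(CPM + 1) scale (SD, n = 6), and the mean was -2.87 in control and -2.34 in cKO mice. It was also lower in macrophage-like than in monocyte-like cells in 6 of 6 mice (-1.45 ± 0.63), with a mean of -1.96 in control and -0.94 in cKO mice. In macrophage-like cells it was higher than in dendritic-like cells in 6 of 6 (1.15 ± 0.49), with a mean of 0.91 in control and 1.40 in cKO mice. Rtp4 differed in the same direction, with -2.89 ± 0.75 for dendritic-like minus monocyte-like and 1.88 ± 0.84 for macrophage-like minus dendritic-like cells, each in 6 of 6 mice. Xaf1 was lower in dendritic-like than in monocyte-like cells in 6 of 6 mice (-1.29 ± 0.74). Bst2 had another order. It was higher in macrophage-like than in dendritic-like cells in 6 of 6 mice (0.89 ± 0.24) and lower in dendritic-like than in monocyte-like cells in 6 of 6 (-0.62 ± 0.21), while macrophage-like and monocyte-like cells differed by 0.27 ± 0.35, above 0 in 4 of 6. For Ifi44, Samd9l, Rsad2, Cmpk2 and Parp14 none of the 3 class differences had the same sign in all 6 mice.

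Within clusters, the 9 genes were mostly higher in cKO sums, in numbers that varied. All cKO sums lay above all control sums for 5 of the 9 genes in dendritic-like cells (3.24% of all 11313 genes tested did so), 7 in macrophage-like cells (6.38%), 9 in cluster 3 (9.63%), 9 in cluster 4 (5.67%), 6 in monocyte-like cells (6.54%), 4 in cluster 6 (2.64%) and 5 in lymphoid-like cells (3.71%). None of the 9 lay apart in the opposite direction in any of these clusters, where 4.99%, 8.34%, 13.3%, 6.99%, 6.74%, 3.55% and 5.71% of all genes did, in the same order. The share of all genes was highest in cluster 3, which had sums from 2 control mice only. With sums of at least 10 cells in place of 20, the members apart upwards were 5, 3, 7, 6, 5, 2 and 5 in the same order of clusters. In macrophage-like cells those that then overlapped were Rtp4, Samd9l, Rsad2 and Xaf1. Adding mice can only keep or lower such counts, and the share of all genes apart in these sums is not given. The median log2 fold change of the 9 genes was 1.56 in dendritic-like, 1.63 in macrophage-like and 1.13 in monocyte-like cells, beside -0.11, -0.10 and 0 over all genes. It was 1.93 in cluster 3 and 1.85 in cluster 4. Members of 3 or fewer control UMIs were also set to the ratio of the pooled counts, against a floor of 3 where control had 0. These medians were then the same, and those of cluster 6 and of lymphoid-like cells were 1.92 and 1.56.

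Ifi27l2a was apart in all 7 clusters, with log2 fold changes from 1.47 (SE 0.25) in monocyte-like cells to 2.40 (SE 0.26) in macrophage-like cells. In lymphoid-like cells it was at 652, 382 and 667 CPM in control and 1508, 2096 and 2778 CPM in cKO mice, a log2 fold change of 1.96 (SE 0.27). Rtp4 was apart in all 7 clusters as well. In macrophage-like cells it was at 33.9, 57.1 and 51.4 CPM in control and 179.8, 286 and 363 CPM in cKO mice. There the separation was lost with control replicate 3, at 202 CPM (21 UMIs) in 12 cells. In lymphoid-like cells all but 1 of its UMIs came from cKO mice, 35 against 1, a ratio of pooled CPM of 34.5 with a 95% exact interval of 5.80 to 1401.

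Bst2 was apart in 6 clusters, with log2 fold changes of 0.76 (SE 0.23) in macrophage-like, 0.79 (SE 0.22) in dendritic-like and 0.92 (SE 0.24) in monocyte-like cells. Its changes in clusters 3 and 4 were 1.23 (SE 0.27) and 1.37 (SE 0.25). In control mice it was highest in lymphoid-like cells, at 652, 883 and 624 CPM, where cKO mice had 1097, 894 and 957 CPM. The 1 cluster in which Bst2 overlapped was cluster 6.

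Rsad2 was apart in macrophage-like cells, at 3.99, 19.4 and 2.86 CPM in control and 45.0, 49.3 and 34.7 CPM in cKO mice. The separation was lost with the mice of 10 to 19 such cells, control replicate 3 at 48.1 CPM (5 UMIs) and cKO replicate 5 at 0 CPM. In cluster 4 it was at 8.12, 7.76 and 16.9 CPM in control and 37.2, 167 and 110.1 CPM in cKO mice, a log2 fold change of 3.16 (SE 0.65). In dendritic-like cells the values overlapped, from 5.24 to 38.5 CPM in control and from 11 to 58.1 CPM in cKO mice. Cmpk2 was apart in clusters 3 and 4 only, and in neither with sums of at least 10 cells. It had a log2 fold change of 0.84 (SE 0.81) in monocyte-like cells. Parp14 was apart in clusters 3, 4 and 6, and in none of them with sums of at least 10 cells. In macrophage-like cells its control sums of 8.97, 46.3 and 22.9 CPM spanned its cKO sums of 28.1, 24.7 and 41.0 CPM.

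Ifi44 had few UMIs in the control cells of every cluster. In monocyte-like cells it had 1 UMI over all control cells and 51 over all cKO cells, a ratio of pooled CPM of 35.2 with a 95% exact interval of 6.05 to 1419. In cluster 3 the counts were 1 and 76, a ratio of 53.6 (9.34 to 2146). In dendritic-like cells it was at 0.781, 0.655, 7.71 and 3.52 CPM in control and 34.5, 66.0 and 50.2 CPM in cKO mice. In cluster 6 it had 0 control UMIs and 4 cKO UMIs, 1.26-fold higher against a floor of 3 UMIs over the group. The 95% exact intervals overlapped, at 0 to 18.8 CPM in control and 5.25 to 49.3 CPM in cKO cells. Intervals cover counting error only, and a ratio to the floor leaves out the counting error of the cKO UMIs. Samd9l had 0 and 3 UMIs in cluster 6, which gives no fold, and in lymphoid-like cells its log2 fold change was -0.13 (SE 0.64).

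Clusters 7 and 9 had too few mice with 20 cells for a comparison, and their pooled counts have no replicate error. In cluster 7, 243 of whose 274 cells came from cKO mice, Ifi27l2a was at 2008 CPM over control cells and 5100 CPM over cKO cells. Rsad2 there had 0 control UMIs and 155 cKO UMIs, 4.70-fold higher against the same floor. Its 95% exact intervals were 0 to 34.6 CPM in control and 112 to 155 CPM in cKO cells. In stromal-like cells, Ifi27l2a was at 2832 CPM over 69 control cells and 9331 CPM over 18 cKO cells. The latter was the highest pooled cKO value of any cluster, from few cells.

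Whether the cKO change differed between macrophage-like and monocyte-like cells was tested in 1 edgeR quasi-likelihood fit over 11313 genes, with an adjusted p over all of them. The sums of both classes came from the same mice, and the fit had no term for the mouse, so the pairing was not used. None of the 9 genes passed 0.05, and 5 genes did (0.0442%): Cd74, H2-Aa, H2-Ab1 and H2-Eb1, which encode parts of the MHC class II machinery, and Tfec. At an unadjusted p under 0.05 there were 2 of the 9 genes and 532 of all genes. Those 2 were Ifi27l2a, whose log2 change was larger in macrophage-like cells by 0.93 (SE 0.35, unadjusted p = 0.00965, edgeR adjusted p = 0.982), and Rtp4, larger by 1.14 (SE 0.45, unadjusted p = 0.0140, edgeR adjusted p = 0.982). For Bst2 the difference was -0.15 (SE 0.33), so that an interval of 2 SE ran from -0.80 to 0.50. The interval for Parp14 was -1.36 to 1.22 and that for Xaf1 -0.56 to 1.83, which leaves room for differences of over 2-fold either way for Parp14.

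**Figure D3:**
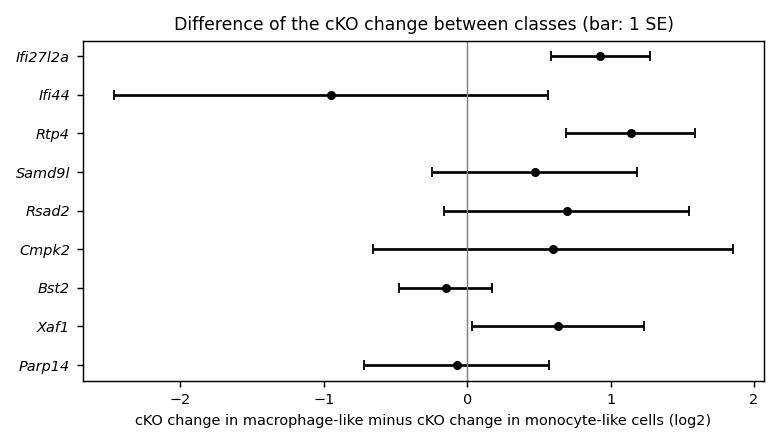
Difference between the cKO change in macrophage-like cells and the cKO change in monocyte-like cells for each of the 9 genes (x axis, log2 units), with bars of 1 SE from the edgeR fit. Ifi27l2a and Rtp4 lie above 0 at 0.93 and 1.14 and none of the 9 passed an adjusted p of 0.05. Ifi44, with 1 control UMI in monocyte-like cells, has the widest bar.

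The share of cells with a UMI was taken after thinning each cell to 1000 UMIs, which left out 99 of 1863 control and 79 of 1350 cKO cells. Ifi27l2a was found in 46.1% ± 4.63 of control and 86.5% ± 3.44 of cKO cells (SD, n = 4 mice each), and in 74.9% and 94.7% without thinning. Bst2 was found in 19.5% ± 1.95 and 35.9% ± 2.03 of thinned cells, and Rtp4 in 5.26% ± 1.21 and 20.0% ± 2.6. Xaf1 was found in 2.93% ± 1.26 and 9.55% ± 2.23. The other 5 genes were found in 0.255% to 2.68% of control and 1.62% to 5.07% of cKO cells on average.

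**Figure D4:**
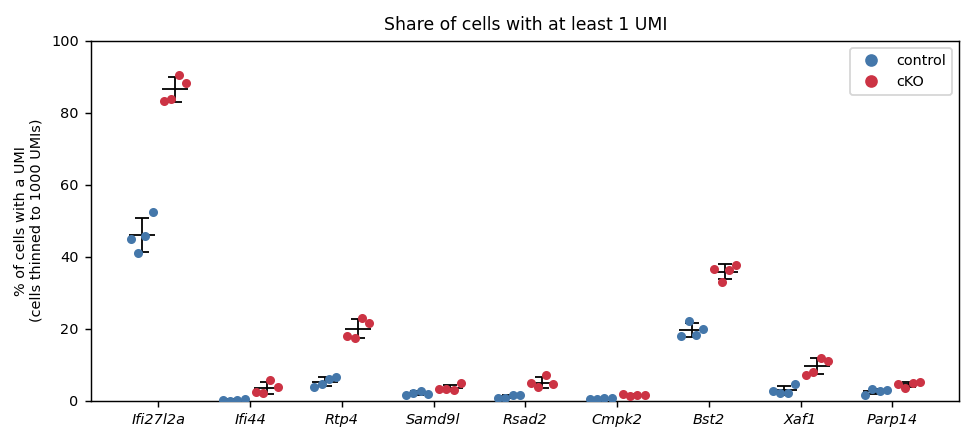
Percentage of cells with at least 1 UMI of each gene (y axis, 0 to 100%) after thinning to 1000 UMIs per cell, with 1 point per mouse and the mean with the SD over 4 control or 4 cKO mice. Ifi27l2a is found in 41.1% to 52.3% of the cells of a control mouse and 83.4% to 90.5% of a cKO mouse.

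No cell type here is known to lack Ifi27l2a, so the share owed to free RNA could not be set from the data. Pooled over mice, its thinned share was 22.5% of control and 53.9% of cKO dendritic-like cells, at medians of 9400 and 8108 UMIs per cell, and 28.8% and 52.3% of lymphoid-like cells, at medians of 3545 and 3435 UMIs. The highest control share was that of stromal-like cells at 81.0%, followed by 75.3% in monocyte-like cells. Rtp4 was found in 0.685% of control lymphoid-like cells and 10.7% of control monocyte-like cells, at medians of 3545 and 4081 UMIs.

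The rest of the antiviral programme was tested in the same fit of all cells summed. Its gene list and that of interferon signaling were chosen with earlier results of these data known, so their counts are no independent support. Of a list of 50 other antiviral genes, 47 were tested, 24 were higher in cKO mice past an edgeR adjusted p of 0.05, none was lower and 23 did not pass, beside 2.99% of all genes higher and 1.48% lower. The median log2 fold change was 0.83. Leaving out control replicate 1 brought the 24 down to 8, control replicate 2 to 9, cKO replicate 7 to 12 and cKO replicate 8 to 14. The share of all genes called without these mice is not given, so the drops cannot be read as particular to these genes. The largest changes were those of Ifi27l2b, 3.67 (SE 0.66, edgeR adjusted p = 0.0109), Ddx60, an RNA helicase of the antiviral response, 2.14 (SE 0.35, edgeR adjusted p = 0.00740), and Zbp1, a sensor of Z-form nucleic acids, 2.0 (SE 0.27, edgeR adjusted p = 0.00226). The value of Ifi27l2b was uneven, with 301 CPM in cKO replicate 5 and 47.2 to 65.6 CPM in the other cKO mice. Ifi27, another ISG12 gene, had a log2 fold change of -0.50 (SE 0.19, edgeR adjusted p = 0.154), and it fell to -1.21 (edgeR adjusted p = 0.00393) without the dendritic-like, lymphoid-like and stromal-like clusters.

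Of 17 interferon signaling genes, 16 were tested and 5 were higher, among them Irf7, Usp18, Stat2 and Irf9. Irf7, the factor that drives interferon genes, was at 62.1 to 159.5 CPM in control and 574 to 909.8 CPM in cKO mice, with a log2 fold change of 2.97 (SE 0.29, edgeR adjusted p = 0.000244). Usp18, which removes ISG15 and dampens the receptor, changed by 1.83 (SE 0.33, edgeR adjusted p = 0.0104). Stat2 and Irf9, transcription factors downstream of the receptor, changed by 0.85 and 0.67, with edgeR adjusted p = 0.0270 and 0.0377. The receptor gene Ifnar1 had a log2 fold change of 0.01 (SE 0.18). Without control replicate 2 the count of 5 was 2, and it was 3 without control replicate 1, cKO replicate 7 or cKO replicate 8. The share of all genes called is again not given for these sets of mice. Of 21 interferon genes, 3 were in the matrix, with 2 control and 8 cKO UMIs for Ifnb1, 15 and 14 for Ifng and 0 and 1 for Ifnz.

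Within clusters fewer of these genes passed. In macrophage-like cells, 4 of the other antiviral genes were higher (Ifi27l2b, Rnf213, Zbp1 and Sp100), with Irf7 and Usp18 (0.442% of all genes were higher), and Irf1 was lower by a log2 fold change of -1.53 (SE 0.39, edgeR adjusted p = 0.0377, with 0.203% of all genes lower). In monocyte-like cells 2 were higher (Ifi27l2b and Zbp1), with Irf7 (0.398%), and in dendritic-like cells 4 (Zbp1, Slfn5, Lgals9 and Lgals3bp), with Irf7 and Usp18 (0.38%). Clusters 3 (Ifi27l2b, Znfx1, Rnf213 and Zbp1) and 4 (Ifi27l2b, Mx1, Zbp1 and Lgals3bp) had 4 each, with Irf7 and Usp18 in both (0.522% and 0.513%). In cluster 6 Irf7 alone was higher (0.0884%), and in lymphoid-like cells no gene of the lists passed (0.0619%). For the counts with 1 mouse left out, the share of all genes called is not given. In monocyte-like cells the 2 antiviral genes were 0 without control replicate 1 and 1 without control replicate 2, cKO replicate 7 or cKO replicate 8. In macrophage-like cells the 4 were 1 without control replicate 1, 2 without control replicate 2 and 0 without cKO replicate 8, and the 2 signaling genes were 1 without control replicate 1, cKO replicate 7 or cKO replicate 8.

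The genes whose levels were most like the mean of the 9, over 47 sums of at least 20 cells of 1 cluster and 1 mouse, were Ifit3 (r = 0.861), Isg15 (0.845), Ifit3b (0.822), Ifit1 (0.789) and Irf7 (0.778). The sums share mice and clusters, and the correlations are a description. They run over control and cKO sums alike, and the 9 genes were chosen with their difference between the conditions known. A gene that is higher in cKO cells can therefore correlate with the mean of the 9 through that difference. Likeness within either condition was not tested. Among the 9 genes themselves, each of which is part of that mean, Ifi27l2a (0.832), Rsad2 (0.811) and Xaf1 (0.810) were the closest to it, and Samd9l (0.491), Bst2 (0.494) and Cmpk2 (0.521) the farthest.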

How the data were processed

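Libraries were prepared with the 10x Genomics 3′ v2 kit, 1 well per mouse, with a target of 3000 cells recovered. They were sequenced together, so no batch was available to compare. The authors aligned reads with STAR 2.5.3a in Cell Ranger to mm10 with the EYFP sequence added, and deposited raw UMI counts per gene and barcode, merged without down-sampling. All columns could be assigned to a mouse by the label in their names.

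Cells were kept with a log10 of UMIs of at least 2.8, a log10 of genes of at least 2.6, at most 5% mitochondrial UMIs and no hemoglobin UMI, as in the study's methods. Cells were clustered with scran 1.30.0 (Ward, 9 clusters), leaving out 353 of 11850 genes, among them the 9 members. Scrublet (scanpy 1.11.5) doublets were marked and kept in the main results. A cluster was named from at least 2 fixed markers among its 10 leading genes by fold. One whose cells had a low median depth for their own mouse was left unnamed whatever its markers. Counts were summed over all cells of a mouse, or over its cells of 1 cluster (at least 20), scaled to CPM, and compared with edgeR 4.0.16 (TMM, quasi-likelihood test, Benjamini-Hochberg adjustment over all genes), keeping genes above 1 CPM in at least 3 sums and with a UMI in at least 20 cells. SE values are the log2 fold change divided by the root of the quasi-likelihood F. Class levels used an exact sign-flip test of log2(CPM + 1). Shares of cells after thinning are exact expectations. The fits over all cells and of the class difference were tested on simulated data, and the sign-flip test and thinning were not. The simulated sums had no mouse effect, so they do not check the pairing that the class fit left out. Samples are separate mice. DESeq2 1.42.0, the likelihood ratio test, other filters, clusterings and depths, and leaving out mice, were the alternatives.

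The members, gene lists and tests were chosen with earlier results of these data known. The genes named are all 9 members, the 3 largest changes in each direction of each list past the threshold, single genes where 5 or fewer were counted, and the 5 genes most like the members. Rnf213, Sp100, Znfx1, Mx1, Slfn5, Lgals9 and Lgals3bp come under the count of 5 or fewer, and Ifi27 and Ifnar1 were chosen after their values were seen. Of 16889 deposited gene IDs, 16801 were matched to a symbol. One interferon signaling gene and 1 cluster marker are not reported here. No deposited fold changes or p-values were used.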

Additional observations from a re-analysis of the deposited data

Results flagged for a closer look

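A single sample stood far from the others of its group. Ifi27l2a was at 1124 CPM in control replicate 4 against 704 to 774 CPM in the other 3 control mice, a gap that exceeded Dixon's 95% critical ratio for 4 samples. Of 18 groups of 4 mice examined (9 genes in 2 conditions) this was the 1 so marked, and chance marks about 1 group in 20. Without control replicate 4 the log2 fold change of Ifi27l2a was 2.56 in place of 2.40.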

How the results depend on the processing

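All 171 member fold changes recomputed over the alternatives for all cells summed kept their direction. The number of members with all cKO mice above all control mice, 8, ranged from 7 to 9, and from 8 to 9 when 1 mouse was left out. Within clusters that number, 7 in macrophage-like cells, was 3 with at least 10 cells per sum, which adds mice with few cells, and 7 to 8 when 1 mouse was left out. In monocyte-like cells, where it was 6, it was 6 to 8. Adding mice can only keep or lower these counts, and leaving out a mouse can only keep or raise them. The share of all genes apart with other sets of mice is not given. No member passed an adjusted p of 0.05 for the difference of the cKO change between classes in the settings that gave a value. The sign-flip test of class levels passed no difference either, but with 5 or fewer mice, as when 1 of the 6 mice was left out, its smallest p is 0.0625 or more and it could not pass. The cause of the changes that follow was not tested, and the share of all genes called in those settings is not given. In all cells summed, the number of other antiviral genes higher in cKO was 8 to 25 when 1 mouse was left out (24 with all), and 18 to 33 in the other settings, with 1 lower, Ifi27, when the dendritic-like, lymphoid-like and stromal-like clusters were left out. For interferon signaling the range was 2 to 5 (5 with all mice). In macrophage-like cells the other antiviral genes were 11 with 7 clusters, 2 with at least 10 cells per sum and 0 to 5 when 1 mouse was left out (4 as reported). The signaling genes were 1 with at least 10 cells and 1 to 3 without 1 mouse (2 as reported). With 7 clusters the macrophage-like cluster was a broader one, of 953 cells in place of 507. In monocyte-like cells the antiviral genes were 0 with graph clustering, 1 with clustering on all genes, 5 with the cluster fitted alone and 0 to 3 without 1 mouse (2 as reported), and the signaling genes were 0 with graph clustering and 1 whichever mouse was left out (1 as reported). Clustering on all genes gave no value for macrophage-like cells or for the difference between classes. It did give a cluster with 6 macrophage markers among its 10 leading genes, of 335 control and 74 cKO cells. The mean over the 9 members of the difference in share, cKO minus control, was 9.96 percentage points at 1000 UMIs, 12.8 at 2000 UMIs and 14.3 unthinned. No paired analysis was possible because control and cKO mice share no replicate numbers. Depth limits the members with few control UMIs in all cells together, 24 for Ifi44, 56 for Cmpk2, 139 for Rsad2, 212 for Samd9l and 240 for Parp14.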
